A study of Mus musculus with 8 samples.

Results

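The genes described here are those of glycolysis and of the transcriptional response to low oxygen. The list holds 34 mouse genes, chosen by symbol: 22 glucose and lactate transporters, glycolytic enzymes and enzymes that set the fate of pyruvate, and 12 genes of the hypoxia-inducible factor (HIF) pathway or its targets. Of the 34, 33 were among the 13607 genes of the count table (21 of the 22 enzymes and transporters and all 12 HIF genes), and all 33 passed the filter on low counts. Eno1, the main enolase of most tissues, was not analysed here.

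RNA was sequenced from cultured astrocytes of C57BL/6J Yapf/f;Tazf/f mice, in which Cre recombinase can delete Yap and Taz. Per the labels, the cells were transduced with lentiviruses for a doxycycline-inducible HER2CA oncogene, for the doxycycline-dependent activator rtTA, and for CreERT2, which needs 4-hydroxytamoxifen (4OH-TAM) to act. The 8 libraries form 4 groups of 2, replicates A and B. Controls were astrocytes that were not transformed, grown with EGF, bFGF and N-2 supplement and without doxycycline; the sources used here do not say whether they carried the viruses. HER2CA day 15 cells were grown in the same medium with doxycycline for 15 days. A further group of HER2CA cells, also at day 15, had 1 µM 4OH-TAM and a label of YAP/TAZ knockout; it is named by the 4OH-TAM label below. Gliomaspheres were HER2CA cells grown in suspension with doxycycline as first-passage (P1) spheres and collected 3 weeks after the start. The design text and sample labels list DMSO for HER2CA day 15 and gliomaspheres, while the treatment protocol calls cells without 4OH-TAM untreated. The labels do not say whether A and B were separate cultures, so every p-value rests on differences between A and B that could be technical alone.

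Libraries held 15517708 to 28231426 counts. Gliomaspheres B, the shallowest, had 36.1% of its counts on the ribosomal RNA transcript Rn45s (exact Clopper-Pearson 95% interval 36.06% to 36.11%, counting error only), against 0.984% to 2.92% in the other 7. Yap1 held 107 and 103 CPM under the 4OH-TAM label and 101 and 103 CPM in HER2CA day 15, a log2 difference of 0.04 (SE 0.0682, edgeR quasi-likelihood adjusted p = 0.569). Wwtr1, which encodes TAZ, was at 123 and 122 CPM against 194 and 210.3 CPM, a log2 difference of -0.73 (SE 0.0687, edgeR quasi-likelihood adjusted p = 1.25e-07). Yap1 counts were not lower under the knockout label than in HER2CA day 15, and each direction given below for those libraries rests on the label. Against control, Yap1 was lower in both, by -0.42 under the label and -0.46 in HER2CA day 15 (edgeR quasi-likelihood adjusted p = 9.77e-05 and 1.78e-05). Mouse Erbb2, the gene of HER2, was at 32.8 and 31.2 CPM in controls and 30.9 and 30.0 CPM in HER2CA day 15; the sources used here do not say whether construct reads count toward it. Levels throughout are CPM, counts scaled to equal depth, on library sizes adjusted by trimmed mean of M-values (TMM), and a gene is said to rise or fall where edgeR's quasi-likelihood test gave a Benjamini-Hochberg adjusted p under 0.05 over all 13607 genes.

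Glycolysis turns glucose into pyruvate in the cytosol, and lactate dehydrogenase turns pyruvate into lactate, which leaves the cell through monocarboxylate transporters. In brain, astrocytes are known for a high glycolytic rate and for releasing lactate. HIF transcription factors pair an oxygen-sensitive alpha subunit with a constant beta subunit; with oxygen, prolyl hydroxylases mark the alpha subunit for destruction by the VHL ligase, and without it the pair binds DNA and raises genes of glucose uptake, glycolysis, pH control and blood vessel growth. HIF activity is set mainly at the level of the protein, so messenger RNA counts of Hif1a do not measure it.

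Most of the glycolysis and hypoxia genes were lowest in the HER2CA day 15 astrocytes, and most were highest in the controls, with the 4OH-TAM label and the gliomaspheres between them for many genes. Both HER2CA day 15 libraries lay below the other 6 for 20 of the 33 genes, where 30.2% of all 13607 genes showed that pattern. Both control libraries lay above the other 6 for 22 of the 33, against 13.4% of all genes, and below the other 6 for 0 of the 33, against 12.1%. For 12 genes the 4 groups followed 1 order with no overlap between neighbours: HER2CA day 15 lowest, then the 4OH-TAM label, then gliomaspheres, then controls. That order held for 1.81% of all genes. The 12 were the transporters Slc2a1 and Slc16a3, the enzymes Gpi1, Aldoa, Tpi1, Gapdh, Pgk1, Pgam1 and Ldha, and the HIF targets Egln3, Car9 and Bnip3. Leaving gliomaspheres B out of the same scaled levels could only keep or add genes, so it does not check the order. The count was then 12 of the 33 genes, against 2.73% of all genes. With no scaling factors the order held for 3 of the 33 (Slc16a3, Egln3 and Ankrd37, the last not among the 12), against 0.228% of all genes. With Rn45s and Lars2 removed and no scaling factors, a setting chosen after seeing the data, it held for 12, against 1.69%. Those 12 had the low-count gene Ankrd37 in place of Aldoa. Gliomaspheres lay above the other 6 libraries for 5 of the 33 genes (Pfkm, Aldoc, Pkm, Egln1 and Nrn1), against 20.1% of all genes, and below them for 6 (Slc16a1, Hk1, Pfkp, Pfkfb3, Eno2 and Ndrg1), against 18.1%. The 4OH-TAM label lay below the other 6 for 4 (Hk2, Hif1a, Vegfa and P4ha1), against 11.0%, and above them for 0, against 13.9%. Leaving gliomaspheres aside, 19 of the 33 ran from HER2CA day 15 through the 4OH-TAM label up to controls without overlap, as 13.4% of all genes did.

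**Figure D1:**
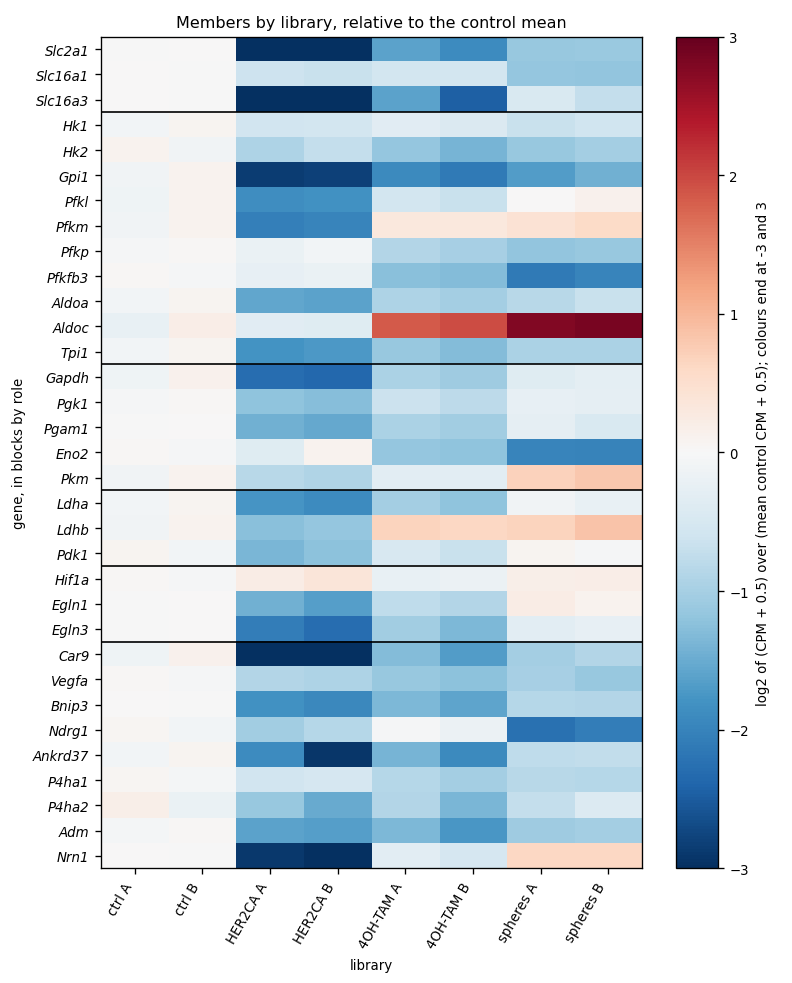
Colour shows the log2 of CPM plus 0.5 over the mean control CPM plus 0.5, for the 33 genes (vertical axis, in blocks by role) in each of the 8 libraries (horizontal axis), with colours ending at -3 and 3. The HER2CA day 15 columns are blue for most genes and red for Hif1a, and Aldoc is the reddest gene in gliomaspheres.

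Compared with controls, 30 of the 33 genes fell in HER2CA day 15, 1 rose (Hif1a) and 2 did not pass the test (Pfkp and Eno2). Over all genes, 38.4% fell and 37.3% rose. The median log2 difference was -1.5 over the 33 genes and -0.02 over all genes. Among the 21 enzymes and transporters 19 fell, with a median of -1.31, and among the 12 HIF genes 11 fell, with a median of -1.60. Leaving out 1 library at a time gave 29 to 30 genes lower.

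Compared with HER2CA day 15, 22 of the 33 genes rose under the 4OH-TAM label and 7 fell, where 40.8% of all genes rose and 39.7% fell. The median log2 difference was 0.62, against 0.01 for all genes. The 7 that fell were Hk2, Pfkp, Pfkfb3, Eno2, Hif1a, Vegfa and P4ha1. Compared with controls, the same libraries had 29 genes lower and 3 higher (Pfkm, Aldoc and Ldhb), where 28.2% of all genes fell and 31.0% rose, and the median was -0.99 against 0.00179 for all genes. Ndrg1 did not pass the test. These comparisons share libraries, so their values are given side by side and no agreement between them is drawn.

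Gliomaspheres differed from controls by a fall of 23 genes and a rise of 6 (Pfkm, Aldoc, Pkm, Ldhb, Hif1a and Nrn1), where 32.0% of all genes fell and 32.5% rose; the median was -0.63 against -0.01. Against HER2CA day 15, 23 rose and 7 fell (38.4% and 40.4% of all genes), with a median of 1.15 against -0.03. Against the 4OH-TAM label, 22 rose and 6 fell (31.3% and 29.7% of all genes), with a median of 0.51 against 0.02. The last count was 1 gene higher with no scaling factors and 19 higher with no scaling factors once Rn45s and Lars2 were removed.

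**Figure D2:**
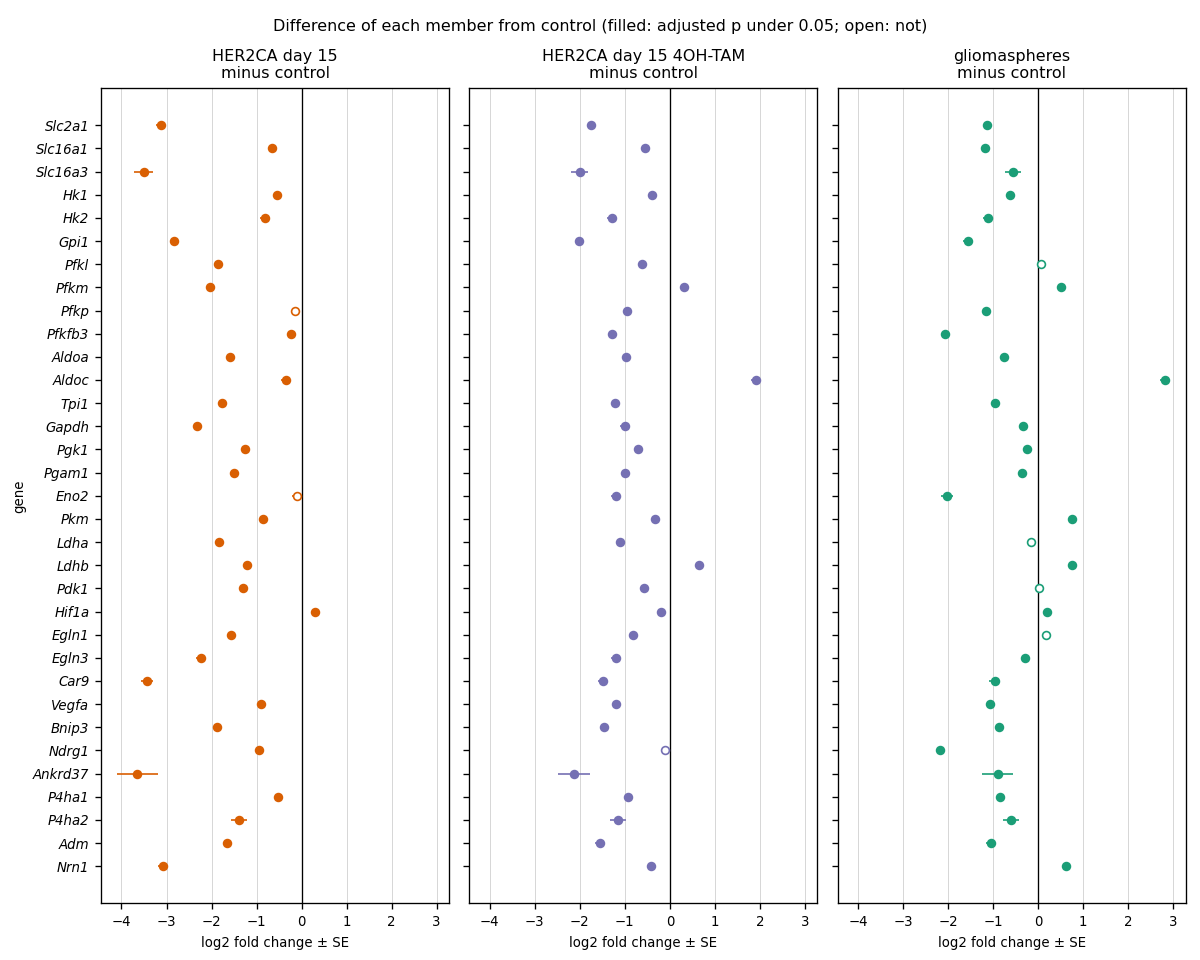
Points are log2 fold changes from control and bars are standard errors, for HER2CA day 15, the 4OH-TAM label and gliomaspheres (panels, n = 2 libraries a group), for the 33 genes on the vertical axis; open points did not pass the test. In HER2CA day 15 the points lie left of 0 except Hif1a, and in gliomaspheres Aldoc lies at 2.81, to the right of all others.

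The windows before the start sites of the 33 genes were read for the HIF-binding core, spelled ACGTG or GCGTG and searched on both strands in the 250 bases before each RefSeq start (GRCm38.p6). The first spelling also lies inside the E-box CACGTG, which holds it on both strands and which other factors bind. Of the 33 genes, 31 had a window, and the core was in at least 1 window of 28 of the 31 (90.3%). The same count was 6340 of 10339 genes of the table with a window (61.3%) and 41.5% of all 27025 genes with one; the 31 genes had 1.39 windows each on average and the table's genes with a window 1.28. It was found for 18 of 21 enzymes and transporters and 10 of 10 HIF genes with a window. Counting only the first window of each gene, the core was in 24 of the 31 (77.4%). The same share was 56.8% of the table's genes with a window. Shown are Slc16a3 and Car9, 2 of the genes that fell furthest in HER2CA day 15. Ldha and Bnip3 follow, whose windows hold the most matches when an E-box is counted on each strand. Last is Gpi1, which shared their order and holds none. Capitals mark each match.
Slc16a3: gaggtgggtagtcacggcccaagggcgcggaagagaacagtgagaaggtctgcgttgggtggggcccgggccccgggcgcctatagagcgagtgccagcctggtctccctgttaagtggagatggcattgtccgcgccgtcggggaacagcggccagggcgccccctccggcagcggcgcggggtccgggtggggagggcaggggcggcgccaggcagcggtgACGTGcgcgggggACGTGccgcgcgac
Car9: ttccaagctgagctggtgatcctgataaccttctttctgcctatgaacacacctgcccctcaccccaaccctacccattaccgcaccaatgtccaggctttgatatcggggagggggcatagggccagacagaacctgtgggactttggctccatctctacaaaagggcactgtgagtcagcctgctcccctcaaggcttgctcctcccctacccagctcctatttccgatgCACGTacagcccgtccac
Ldha: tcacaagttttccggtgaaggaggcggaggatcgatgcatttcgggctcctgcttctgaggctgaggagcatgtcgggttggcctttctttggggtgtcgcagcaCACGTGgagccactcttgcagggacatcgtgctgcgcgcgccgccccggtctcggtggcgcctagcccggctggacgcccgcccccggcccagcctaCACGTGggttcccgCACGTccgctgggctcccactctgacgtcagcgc
Bnip3: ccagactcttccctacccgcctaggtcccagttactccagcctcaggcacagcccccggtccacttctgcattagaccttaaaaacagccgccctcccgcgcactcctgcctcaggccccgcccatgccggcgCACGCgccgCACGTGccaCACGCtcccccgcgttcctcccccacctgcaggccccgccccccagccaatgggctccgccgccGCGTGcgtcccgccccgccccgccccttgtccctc
Gpi1: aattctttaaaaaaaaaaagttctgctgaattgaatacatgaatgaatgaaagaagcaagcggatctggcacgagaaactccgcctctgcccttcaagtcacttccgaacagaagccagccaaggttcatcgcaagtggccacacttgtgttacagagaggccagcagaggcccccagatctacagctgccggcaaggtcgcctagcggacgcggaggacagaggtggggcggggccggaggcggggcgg
The windows are chr11:120948817-120949066, plus strand (Slc16a3), chr4:43506776-43507025, plus strand (Car9), chr7:46845554-46845803, plus strand (Ldha), chr7:138909507-138909756, minus strand (Bnip3) and chr7:34230337-34230586, minus strand (Gpi1). The single Car9 match begins 18 bases before the start. Both Slc16a3 matches lie within 27 bases of it, and the Ldha window holds 2 E-boxes and 1 further match. Ldha has 2 windows, of which the first is shown and the second holds 1 match. No match was found in any window of 3 genes, Gpi1, Tpi1 and Eno2, of which Gpi1 and Tpi1 fell in HER2CA day 15 and Eno2 did not pass the test. A match is a run of letters and not a measured binding site, and its absence says nothing of sites elsewhere.

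Glucose enters astrocytes through GLUT1, encoded by Slc2a1 (chromosome 4, 119108711 to 119137983, GRCm38, as all gene positions here). Slc2a1 held 281 and 289 CPM in controls, 29.7 and 35.1 CPM in HER2CA day 15, 93.5 and 76.6 CPM under the 4OH-TAM label and 128 and 132 CPM in gliomaspheres. The 4 groups did not overlap, and HER2CA day 15 was lowest. Its log2 difference from control was -3.13 (SE 0.101, edgeR quasi-likelihood adjusted p = 1.9e-12), a fall of 8.77-fold. From HER2CA day 15 to the 4OH-TAM label it rose 2.62-fold and was still 3.35-fold below control. Gliomaspheres were 2.19-fold below control.

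Lactate leaves through the monocarboxylate transporters. Slc16a3 (chromosome 11, 120948480 to 120960868) encodes MCT4, the form known for lactate export from glycolytic cells. Slc16a3 held 48.2 and 46.8 CPM in controls, 3.62 and 4.62 CPM in HER2CA day 15, 15.4 and 8.34 CPM under the 4OH-TAM label and 34.6 and 28.9 CPM in gliomaspheres. Controls were highest, and HER2CA day 15 was lowest with 79 and 134 counts. The log2 difference from control was -3.51 (SE 0.211, edgeR quasi-likelihood adjusted p = 9.16e-10). Slc16a3 rose by 1.5 on the log2 scale under the 4OH-TAM label, or by 1.00 without 4OH-TAM replicate A. Gliomaspheres were -0.56 from control (edgeR adjusted p = 0.0104), which became 0.0567 without control A. Slc16a1 (MCT1), which carries lactate both ways, held 336 and 331 CPM in controls, 215 and 210.0 CPM in HER2CA day 15, 227 and 226 CPM under the 4OH-TAM label and 149.7 and 146 CPM in gliomaspheres. It had another order, with gliomaspheres lowest and the 2 day 15 groups close to each other. It fell 1.57-fold in HER2CA day 15 and 2.25-fold in gliomaspheres, and the 4OH-TAM label differed from HER2CA day 15 by 0.09 (SE 0.0655, edgeR quasi-likelihood adjusted p = 0.194). The last difference passed with upper-quartile factors (0.30, edgeR adjusted p = 0.000729) and with a filter of 5 CPM in 2 libraries (0.17, 0.0283). It also passed with no scaling factors once Rn45s and Lars2 were removed (0.22, 0.00707).

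Hexokinases trap glucose as glucose 6-phosphate. Hk1, the form most used in brain, held 421 and 470.1 CPM in controls, 301 and 306 CPM in HER2CA day 15, 351 and 330.1 CPM under the 4OH-TAM label and 281 and 296 CPM in gliomaspheres. Hk2, the form induced in many tumours and by HIF, held 77.9 and 67.0 CPM in controls, 37.9 and 44.3 CPM in HER2CA day 15, 31.9 and 27.3 CPM under the 4OH-TAM label and 32.5 and 35.2 CPM in gliomaspheres. Both were highest in controls. Hk2 was lowest under the 4OH-TAM label, 2.45-fold below control, while Hk1 was lowest in gliomaspheres, 1.55-fold below. Neither passed the test against the next lowest group. For Hk1 that difference, gliomaspheres from HER2CA day 15, was -0.07 (edgeR adjusted p = 0.391), and for Hk2 the next group was gliomaspheres. Hk2 fell further from HER2CA day 15 to the 4OH-TAM label, by 0.48 on the log2 scale, where most of the glycolytic enzymes rose. The fall of Hk2 from HER2CA day 15 to gliomaspheres was -0.29 (edgeR adjusted p = 0.0245), or -0.17 and not past the test without HER2CA day 15 B (adjusted p = 0.250). It was also lost without gliomaspheres A.

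Gpi1 (chromosome 7, 34201330 to 34230336), whose enzyme turns glucose 6-phosphate into fructose 6-phosphate, fell furthest in HER2CA day 15 among the listed glycolytic enzymes that were measured. Gpi1 held 2886 and 3319 CPM in controls, 430.2 and 447 CPM in HER2CA day 15, 823 and 717 CPM under the 4OH-TAM label and 964 and 1134 CPM in gliomaspheres. Controls stood far above every other group. The log2 difference from control was -2.82 (SE 0.108, edgeR quasi-likelihood adjusted p = 7.43e-12) in HER2CA day 15, -2.01 under the 4OH-TAM label and -1.56 in gliomaspheres.

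Phosphofructokinase, the committed step, comes as liver, muscle and platelet forms. Pfkl held 196 and 231 CPM in controls, 58.2 and 60.4 CPM in HER2CA day 15, 145 and 134 CPM under the 4OH-TAM label and 217 and 234 CPM in gliomaspheres. Pfkm held 219 and 253 CPM in controls, 56.6 and 59.3 CPM in HER2CA day 15, 294 and 296 CPM under the 4OH-TAM label and 321 and 351 CPM in gliomaspheres. Pfkp held 795 and 825 CPM in controls, 702 and 770.4 CPM in HER2CA day 15, 438 and 403 CPM under the 4OH-TAM label and 356 and 367 CPM in gliomaspheres. Pfkl and Pfkm fell 3.60-fold and 4.08-fold in HER2CA day 15, with the groups far apart. Pfkp differed by -0.14 (SE 0.0771, edgeR quasi-likelihood adjusted p = 0.117) there, which did not pass the test, although it passed with upper-quartile factors (-0.29, adjusted p = 0.00283). Under the 4OH-TAM label Pfkm rose 5.09-fold over HER2CA day 15 and stood 0.32 above control on the log2 scale, a call lost without control A (0.21, edgeR adjusted p = 0.0617). Pfkp moved the other way, -0.81 from HER2CA day 15. In gliomaspheres Pfkm was the highest of the 4 groups and Pfkp the lowest. Between gliomaspheres and the 4OH-TAM label, the Pfkm difference did not pass the test. For Pfkp that difference lost its call without 4OH-TAM replicate A or gliomaspheres A.

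Pfkfb3 (chromosome 2, 11471433 to 11554077), whose product makes the main activator of phosphofructokinase and which is a known HIF target, held 394 and 379 CPM in controls, 323 and 335 CPM in HER2CA day 15, 162 and 157 CPM under the 4OH-TAM label and 88.6 and 96.9 CPM in gliomaspheres. The order was controls, HER2CA day 15, 4OH-TAM and gliomaspheres, without overlap. The fall in HER2CA day 15 was small, -0.23 (edgeR adjusted p = 0.00782), and was lost without HER2CA day 15 A (adjusted p = 0.0580). In gliomaspheres it reached -2.06 (SE 0.0750, edgeR quasi-likelihood adjusted p = 8.99e-12), a fall of 4.18-fold.

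Aldolase splits fructose bisphosphate into its triose products. Aldoa, the form of most tissues, held 1198 and 1355 CPM in controls, 429.7 and 419.6 CPM in HER2CA day 15, 676 and 626 CPM under the 4OH-TAM label and 716 and 802 CPM in gliomaspheres. Aldoc (chromosome 11, 78322968 to 78327781), the brain form and a known astrocyte marker, held 97.4 and 130.0 CPM in controls, 89.9 and 88.7 CPM in HER2CA day 15, 406 and 445 CPM under the 4OH-TAM label and 777 and 819 CPM in gliomaspheres. Aldoa kept the common order with controls highest, and Aldoc did not. Aldoc was 7.02-fold higher in gliomaspheres than in controls (log2 difference 2.81, SE 0.112, edgeR quasi-likelihood adjusted p = 2.27e-11) and 3.74-fold higher under the 4OH-TAM label. In HER2CA day 15 it was -0.35 from control (edgeR adjusted p = 0.00857), -0.56 without control A and -0.13 without control B, where it did not pass the test. Without HER2CA day 15 B it also just missed the threshold. The rise of Aldoa from the 4OH-TAM label to gliomaspheres, 0.22, became 0.12 without gliomaspheres B and -0.20 with no scaling factors. It was lost without 4OH-TAM replicate B too.

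Tpi1, triosephosphate isomerase, held 1031 and 1165 CPM in controls, 315 and 332 CPM in HER2CA day 15, 499 and 446 CPM under the 4OH-TAM label and 571 and 565 CPM in gliomaspheres. Gapdh (chromosome 6, 125161715 to 125166467), the NADH-forming step and a gene often used as a reference in expression assays, held 2294 and 2738 CPM in controls, 513 and 494 CPM in HER2CA day 15, 1301 and 1207 CPM under the 4OH-TAM label and 1942 and 2053 CPM in gliomaspheres. Gapdh fell 5.0-fold in HER2CA day 15 (log2 difference -2.32, SE 0.0967, edgeR quasi-likelihood adjusted p = 1.76e-11), with no overlap between any of the groups. It rose 2.49-fold from there to the 4OH-TAM label. In gliomaspheres it was -0.33 from control, or -0.20 and not past the test without control B. Tpi1 was 3.40-fold below control in HER2CA day 15, 2.33-fold under the 4OH-TAM label and 1.93-fold in gliomaspheres. Its difference between the last 2 groups, 0.27, turned to -0.13 with no scaling factors and lost its call without 4OH-TAM replicate B.

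**Figure D3:**
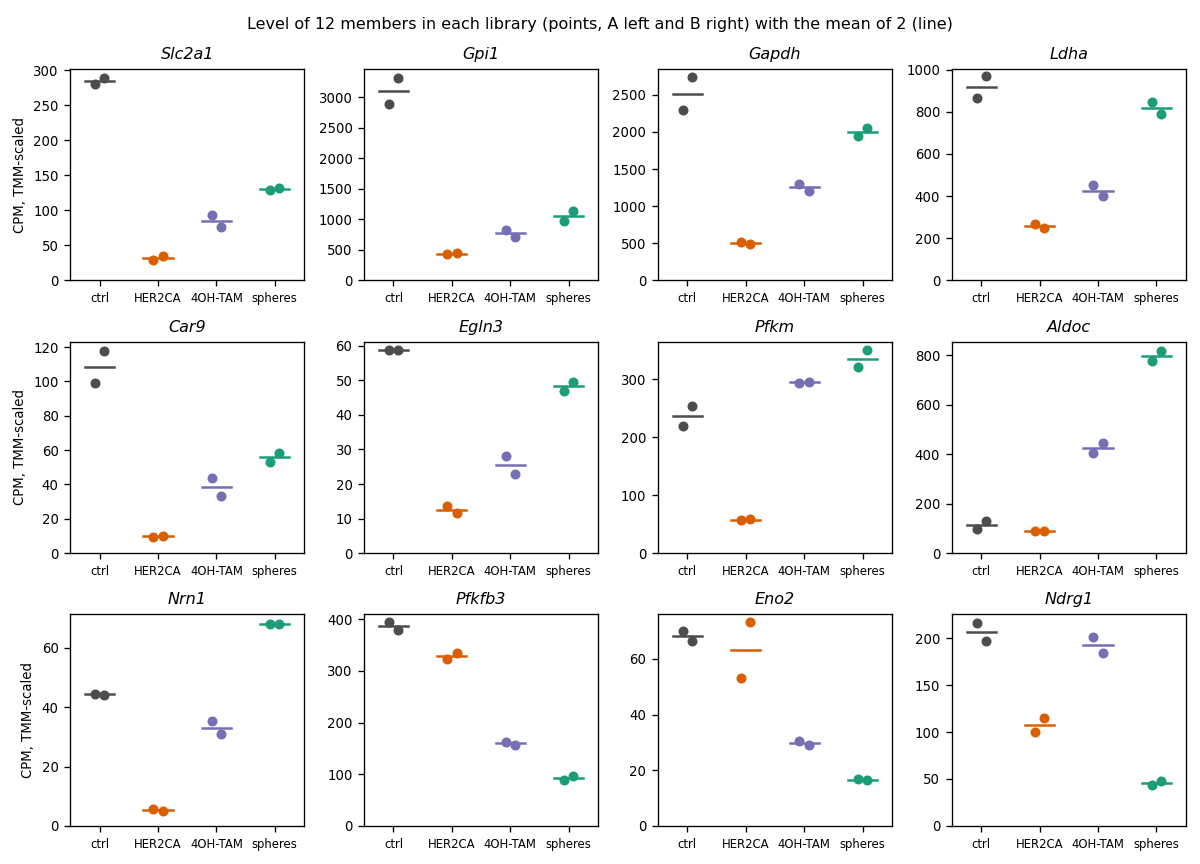
Points are the CPM of each library (A left, B right) and lines the mean of 2, for 12 of the 33 genes, with each vertical axis starting at 0. Slc2a1, Gpi1, Gapdh, Ldha, Car9 and Egln3 are highest in controls and lowest in HER2CA day 15, Pfkm, Aldoc and Nrn1 are highest in gliomaspheres, and Pfkfb3, Eno2 and Ndrg1 are lowest there.

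Phosphoglycerate kinase (Pgk1) and mutase (Pgam1) carry the next steps. Pgk1 held 776 and 825 CPM in controls, 344 and 329 CPM in HER2CA day 15, 512 and 464 CPM under the 4OH-TAM label and 679 and 663 CPM in gliomaspheres, and Pgam1 held 238 and 239.9 CPM in controls, 87.4 and 81.5 CPM in HER2CA day 15, 124 and 116 CPM under the 4OH-TAM label and 199 and 175 CPM in gliomaspheres. Both kept the common order, with falls of 2.38-fold and 2.83-fold in HER2CA day 15. In gliomaspheres Pgk1 was -0.25 from control, a call lost without control B (edgeR adjusted p = 0.0722).

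Eno2 (chromosome 6, 124760053 to 124769673), the neuronal enolase, held 69.9 and 66.3 CPM in controls, 53.0 and 73.1 CPM in HER2CA day 15, 30.4 and 29.1 CPM under the 4OH-TAM label and 16.8 and 16.5 CPM in gliomaspheres. The HER2CA day 15 libraries lay either side of the controls, and the log2 difference of -0.11 did not pass the test (edgeR adjusted p = 0.397); without HER2CA day 15 B it was -0.36 and passed (adjusted p = 0.00421). Eno2 fell 2.29-fold under the 4OH-TAM label and 4.08-fold in gliomaspheres, both against control. Eno1b, a near copy of Eno1 named here after its values were seen, held 103 and 127 CPM in controls, 10.3 and 10.3 CPM in HER2CA day 15, 89.6 and 78.3 CPM under the 4OH-TAM label and 174 and 185 CPM in gliomaspheres. It was lowest in HER2CA day 15 and highest in gliomaspheres, but its counts may include reads of Eno1 and are uncertain. Pkm, pyruvate kinase, held 1609.6 and 1869.9 CPM in controls, 971 and 938 CPM in HER2CA day 15, 1392 and 1393 CPM under the 4OH-TAM label and 2812 and 3072 CPM in gliomaspheres. It was lowest in HER2CA day 15 (1.82-fold below control) and highest in gliomaspheres (1.69-fold above). Under the 4OH-TAM label it was -0.32 from control, or -0.21 and not past the test without control B. The table sums all Pkm isoforms, so its splice forms were not told apart.

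Lactate dehydrogenase is built of A and B subunits, of which A is the HIF target. Ldha (chromosome 7, 46841475 to 46855627) held 865 and 968 CPM in controls, 269 and 248 CPM in HER2CA day 15, 451 and 398 CPM under the 4OH-TAM label and 847 and 789 CPM in gliomaspheres. Ldhb held 207 and 241 CPM in controls, 92.9 and 99.2 CPM in HER2CA day 15, 357 and 343 CPM under the 4OH-TAM label and 355 and 404 CPM in gliomaspheres. Ldha fell 3.55-fold in HER2CA day 15 (log2 difference -1.83, SE 0.0896, edgeR quasi-likelihood adjusted p = 1e-10) and did not pass the test in gliomaspheres (log2 difference -0.16, SE 0.0867, edgeR quasi-likelihood adjusted p = 0.113). Ldhb fell 2.33-fold in HER2CA day 15 but was 1.56-fold above control under the 4OH-TAM label and 1.69-fold above it in gliomaspheres. Pdk1, the kinase that shuts off pyruvate dehydrogenase and is a HIF target, held 126 and 112 CPM in controls, 45.3 and 50.7 CPM in HER2CA day 15, 85.4 and 75.2 CPM under the 4OH-TAM label and 125 and 117 CPM in gliomaspheres. It fell 2.47-fold in HER2CA day 15. In gliomaspheres it differed from control by 0.03 (SE 0.0867, edgeR quasi-likelihood adjusted p = 0.809), which did not pass the test.

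Hif1a (chromosome 12, 73901375 to 73947530), the oxygen-sensitive HIF subunit, moved opposite to most of the other HIF genes in HER2CA day 15. Hif1a held 254 and 245 CPM in controls, 290.2 and 322 CPM in HER2CA day 15, 213 and 221 CPM under the 4OH-TAM label and 283 and 284 CPM in gliomaspheres. HER2CA day 15 was above the other 6 libraries, a pattern of 31.5% of all genes, and the 4OH-TAM label was below them. The difference of HER2CA day 15 from control was 0.30 (SE 0.0727, edgeR quasi-likelihood adjusted p = 0.00171), a rise of 1.23-fold; it did not pass with upper-quartile factors (0.14, adjusted p = 0.0899). The difference of -0.20 under the 4OH-TAM label and the rise of 0.19 in gliomaspheres, both against control, each lost the call without any 1 of the libraries compared. With no scaling factors the gliomasphere difference was -0.14 from control and -0.01 from the 4OH-TAM label, where it otherwise was 0.38.

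Egln1 (PHD2) and Egln3 (PHD3) encode prolyl hydroxylases that are themselves HIF targets. Egln1 held 169.7 and 171 CPM in controls, 62.1 and 53.7 CPM in HER2CA day 15, 100.5 and 92.4 CPM under the 4OH-TAM label and 199 and 184 CPM in gliomaspheres. Egln3 held 58.7 and 58.9 CPM in controls, 13.5 and 11.6 CPM in HER2CA day 15, 28.1 and 22.8 CPM under the 4OH-TAM label and 46.9 and 49.6 CPM in gliomaspheres. Egln3 fell 4.71-fold and Egln1 2.95-fold in HER2CA day 15, without overlap. Both rose from there to the 4OH-TAM label and again to gliomaspheres. In gliomaspheres Egln1 differed from control by 0.17 (SE 0.0793, edgeR quasi-likelihood adjusted p = 0.0694), which did not pass the test, though it did without gliomaspheres B (edgeR adjusted p = 0.0288). Egln3 was -0.29 from control, a call lost without gliomaspheres A, control A or control B.

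Car9 (chromosome 4, 43506966 to 43513729), the membrane carbonic anhydrase that acidifies the outside of hypoxic cells, is among the most used HIF reporters. Car9 held 99.0 and 118 CPM in controls, 9.62 and 10.2 CPM in HER2CA day 15, 43.6 and 33.4 CPM under the 4OH-TAM label and 52.9 and 58.6 CPM in gliomaspheres. The 4 groups did not overlap, with 210 and 297 counts in the lowest. The log2 difference from control was -3.44 (SE 0.132, edgeR quasi-likelihood adjusted p = 7.6e-12), a fall of 10.9-fold. It rose 3.87-fold to the 4OH-TAM label. The further difference to gliomaspheres was 0.53, or 0.35 without 4OH-TAM replicate B.

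Vegfa, the main vessel growth factor, held 726 and 694 CPM in controls, 385 and 376 CPM in HER2CA day 15, 321 and 301 CPM under the 4OH-TAM label and 355 and 322 CPM in gliomaspheres. Adm, which encodes the vasodilator adrenomedullin, held 65.2 and 69.7 CPM in controls, 21.9 and 21.1 CPM in HER2CA day 15, 26.0 and 19.9 CPM under the 4OH-TAM label and 32.1 and 33.2 CPM in gliomaspheres. Both were highest in controls with the other 3 groups lower. Vegfa fell 1.86-fold in HER2CA day 15 and 2.28-fold under the 4OH-TAM label, and Adm 3.13-fold and 2.94-fold. From HER2CA day 15 to the 4OH-TAM label Vegfa fell further (-0.29), a call lost with upper-quartile factors (adjusted p = 0.330), and Adm differed by 0.09 (SE 0.111, edgeR quasi-likelihood adjusted p = 0.453). Adm was 0.51 higher in gliomaspheres than under the 4OH-TAM label, or 0.32 without 4OH-TAM replicate B. In HER2CA day 15 and gliomaspheres Vegfa differed by -0.17, which did not pass the test (edgeR adjusted p = 0.0551).

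Bnip3, a mitochondrial receptor for mitophagy, held 191 and 189 CPM in controls, 53.2 and 49.7 CPM in HER2CA day 15, 74.8 and 62.8 CPM under the 4OH-TAM label and 104 and 103 CPM in gliomaspheres. It kept the common order and fell 3.69-fold in HER2CA day 15 (log2 difference -1.89, SE 0.0839, edgeR quasi-likelihood adjusted p = 3.56e-11). Ndrg1 (chromosome 15, 66929318 to 66969640), a hypoxia and stress gene tied to myelin in Schwann cells, held 217 and 197 CPM in controls, 99.8 and 114 CPM in HER2CA day 15, 201 and 184 CPM under the 4OH-TAM label and 43.5 and 48.4 CPM in gliomaspheres. Ndrg1 departed from the others in gliomaspheres, where it was 4.53-fold below control and 4.23-fold below the 4OH-TAM label. Under that label it did not pass the test against control (log2 difference -0.10, SE 0.0838, edgeR quasi-likelihood adjusted p = 0.316).

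The collagen prolyl hydroxylase subunits P4ha1 and P4ha2 prepare collagen for folding. P4ha1 held 327 and 304 CPM in controls, 213 and 223 CPM in HER2CA day 15, 174 and 155 CPM under the 4OH-TAM label and 176 and 175 CPM in gliomaspheres. P4ha2 held 24.7 and 19.2 CPM in controls, 9.62 and 7.31 CPM in HER2CA day 15, 11.6 and 8.15 CPM under the 4OH-TAM label and 13.2 and 16.4 CPM in gliomaspheres. Both were highest in controls. P4ha2 fell 2.62-fold in HER2CA day 15 and P4ha1 1.45-fold, and P4ha1 was lowest under the 4OH-TAM label. The P4ha1 difference between that label and gliomaspheres did not pass the test. For P4ha2 the gliomasphere difference of -0.60 from control lost its call without gliomaspheres A or control A. Its rise of 0.55 over the 4OH-TAM label was 0.84 without 4OH-TAM replicate A and 0.32 without B, where it was lost, as it was without gliomaspheres B.

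Nrn1 (chromosome 13, 36725361 to 36735131), which encodes neuritin, a membrane-anchored neurite growth factor, held 44.6 and 44.2 CPM in controls, 5.55 and 5.0 CPM in HER2CA day 15, 35.3 and 30.9 CPM under the 4OH-TAM label and 68.1 and 68.0 CPM in gliomaspheres. Gliomaspheres were highest and HER2CA day 15 lowest, with no overlap. Nrn1 fell 8.45-fold from control to HER2CA day 15 (log2 difference -3.08, SE 0.105, edgeR quasi-likelihood adjusted p = 2.75e-12), and was 13.0-fold higher in gliomaspheres than there. Ankrd37, an ankyrin-repeat protein gene induced by hypoxia, was near the limit of counting: 86 and 92 counts in controls, 13 and 1 in HER2CA day 15, 27 and 15 under the 4OH-TAM label and 45 and 19 in gliomaspheres. Its fall in HER2CA day 15 was -3.65 (SE 0.456), or -6.48 without HER2CA day 15 A. The rise to the 4OH-TAM label was 1.52, 4.35 without HER2CA day 15 A and 0.43 without B, where it did not pass the test, nor did it without 4OH-TAM replicate A. The rise from HER2CA day 15 to gliomaspheres was 2.75, or 5.58 and 1.66 without A or B. Its other gliomasphere calls were lost with DESeq2 and without single libraries.

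Among genes that share a reaction, the ratio of the forms was not the same in every group. Ratios of CPM per kilobase of the longest CCDS transcript were taken within each library, for 8 pairs. The log2 ratio of Aldoc to Aldoa was -4.47 and -4.23 in controls, -3.10 and -3.09 in HER2CA day 15, -1.58 and -1.34 under the 4OH-TAM label and -0.73 and -0.82 in gliomaspheres, so Aldoa led in every library and by least in gliomaspheres. For Pfkp to Pfkm the values were 1.33 and 1.18, 3.11 and 3.17, 0.05 and -0.08 and -0.38 and -0.46 in the same order of groups. The platelet form led in controls and most of all in HER2CA day 15, and the muscle form led in gliomaspheres. For Ldha to Ldhb they were 1.59 and 1.53, 1.06 and 0.84, -0.14 and -0.26 and 0.78 and 0.49, with Ldhb ahead under the 4OH-TAM label alone. Which form led rests on the transcript lengths used, while differences between groups do not. In plain CPM, Pfkp led Pfkm in gliomaspheres (356 and 367 against 321 and 351). Aldoc also led Aldoa there (777 and 819 against 716 and 802). Under the 4OH-TAM label Ldha led Ldhb in plain CPM (451 and 398 against 357 and 343). Slc16a3 to Slc16a1 was lowest in HER2CA day 15, at -5.86 and -5.48, and highest in gliomaspheres, at -2.08 and -2.31. The 48 comparisons of ratios were tested by exact 2-sided permutation of 2 libraries against 2, which none could pass, since its smallest p is 0.33; no model over all 8 libraries was fitted to the ratios.

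**Figure D4:**
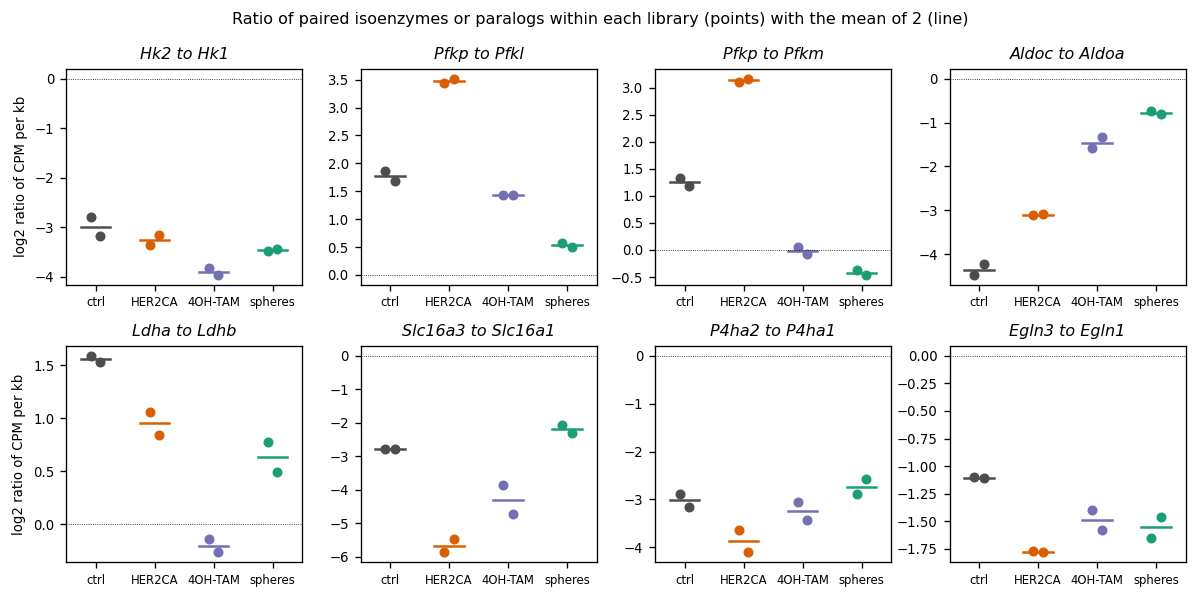
Points are the log2 ratio of CPM per kilobase between paired genes in each library (A left, B right), lines are means of 2, and the dotted line marks a ratio of 1. Pfkp to Pfkm and Pfkp to Pfkl peak in HER2CA day 15, and Aldoc to Aldoa is lowest in controls and highest in gliomaspheres.

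Per kilobase, Gapdh ranked first or second of the 33 genes in every group. Mean levels of Gapdh were 1772 CPM per kilobase in controls, 355 in HER2CA day 15, 883 under the 4OH-TAM label and 1407 in gliomaspheres. Those of Pkm were 715, 393, 573 and 1210.0, so that Pkm ranked above Gapdh in HER2CA day 15, where it was first of the 33 genes, and Gapdh was first in the other groups. Gpi1 was second in controls, at 1076 CPM per kilobase, and ranked lower elsewhere, at 152 in HER2CA day 15. Ankrd37 was last in all 4 groups.

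The wider HIF machinery was read gene by gene. Of the 10 measured, 5 rose and 4 fell in HER2CA day 15 against control, which is near the shares of all genes (37.3% higher and 38.4% lower). Epas1 (chromosome 17, 86753700 to 86833410), which encodes HIF-2 alpha, held 12.1 and 12.2 CPM in controls, 2.29 and 2.38 CPM in HER2CA day 15, 30.6 and 29.0 CPM under the 4OH-TAM label and 48.0 and 42.6 CPM in gliomaspheres. HER2CA day 15 was lowest and gliomaspheres highest, with no overlap, and its log2 difference from control was -2.37 (SE 0.136, edgeR quasi-likelihood adjusted p = 5.11e-10) in HER2CA day 15 and 1.91 in gliomaspheres. Hif3a held 4.30 and 3.54 CPM in controls, 0 and 0.138 CPM in HER2CA day 15, 1.34 and 0.765 CPM under the 4OH-TAM label and 1.42 and 1.72 CPM in gliomaspheres, with 0 and 4 counts in HER2CA day 15. Hif1an, the asparaginyl hydroxylase that blocks HIF from its co-activators, held 39.1 and 34.4 CPM in controls, 75.9 and 80.0 CPM in HER2CA day 15, 38.9 and 45.6 CPM under the 4OH-TAM label and 45.4 and 53.7 CPM in gliomaspheres and rose 2.12-fold in HER2CA day 15. The co-activators Ep300 and Crebbp and the HIF competitor Cited2 also rose there, by 0.81, 0.98 and 1.08 on the log2 scale. Vhl, the ligase subunit, rose by 0.22, and the hydroxylase Egln2 was -0.36 from control, a fall. For the beta subunits, Arnt differed by 0.05 and did not pass the test, and Arnt2 fell by 0.31.

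Other genes of sugar metabolism and hypoxia were read from 6 lists written from general knowledge with earlier results of these data known. Their counts for HER2CA day 15 against control stand beside 38.4% lower and 37.3% higher over all genes. Among 24 further glycolysis genes, 13 fell and 4 rose in HER2CA day 15 against control, with a median log2 difference of -0.87; Bpgm, Slc2a12, Galm and Bsg, the chaperone of the lactate transporters, fell by 1.75, 1.67, 1.46 and 1.34. Among 18 genes of glycogen metabolism 14 fell and 2 rose. Phkg1, a phosphorylase kinase subunit, held 13.6 and 13.9 CPM in controls, 1.05 and 0.931 CPM in HER2CA day 15, 20.5 and 23.2 CPM under the 4OH-TAM label and 13.2 and 14.7 CPM in gliomaspheres. Ppp1r3c, which targets a phosphatase to glycogen, held 261 and 268 CPM in controls, 37.4 and 36.0 CPM in HER2CA day 15, 144 and 122 CPM under the 4OH-TAM label and 258 and 255 CPM in gliomaspheres. Stbd1, a glycogen-binding protein, held 8.72 and 7.41 CPM in controls, 52.4 and 48.8 CPM in HER2CA day 15, 6.09 and 7.12 CPM under the 4OH-TAM label and 2.89 and 3.04 CPM in gliomaspheres. Phkg1 and Ppp1r3c were lowest in HER2CA day 15 and Stbd1 was highest there. The other gene that rose, Gyg (glycogenin), named after its values were seen, held 94.0 and 96.4 CPM in controls, 231 and 229.7 CPM in HER2CA day 15, 89.6 and 83.1 CPM under the 4OH-TAM label and 82.7 and 89.3 CPM in gliomaspheres.

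Among 44 further hypoxia targets, 28 fell and 10 rose in HER2CA day 15, with a median of -0.73, where 38.4% of all genes fell and 37.3% rose. Fam162a, Ddit4, Loxl2 and Fos fell furthest among those at 5 CPM or more, by 2.57, 2.45, 2.39 and 2.35. Igfbp3 was 2.08 higher in gliomaspheres than in controls, and 2.15 higher under the 4OH-TAM label, and 1.99 higher in HER2CA day 15. Among 32 genes of pyruvate oxidation and the TCA cycle, 16 fell and 7 rose in HER2CA day 15, with a median of -0.20. Pdk4, a kinase of pyruvate dehydrogenase related to Pdk1, held 30.0 and 26.7 CPM in controls, 72.3 and 107 CPM in HER2CA day 15, 23.7 and 21.6 CPM under the 4OH-TAM label and 18.1 and 20.0 CPM in gliomaspheres. Unlike Pdk1, Pdk4 was highest in HER2CA day 15, at 1.66 from control. Of the 11 pentose phosphate genes 6 were higher and 5 lower in HER2CA day 15, with a median of 0.44, against the same shares of all genes.

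From HER2CA day 15 to the 4OH-TAM label, 15 of the 24 further glycolysis genes rose and 5 fell, 11 of the 18 glycogen genes rose and 3 fell, and 22 of the 44 hypoxia targets rose and 10 fell. Of the pyruvate oxidation and TCA genes 10 rose and 12 fell. In gliomaspheres against controls the hypoxia targets had 26 lower and 6 higher, and the pyruvate oxidation and TCA genes 6 lower and 12 higher. These counts stand beside shares of 40.8% higher and 39.7% lower over all genes for the first comparison and 32.5% and 32.0% for the second.

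**Figure D5:**
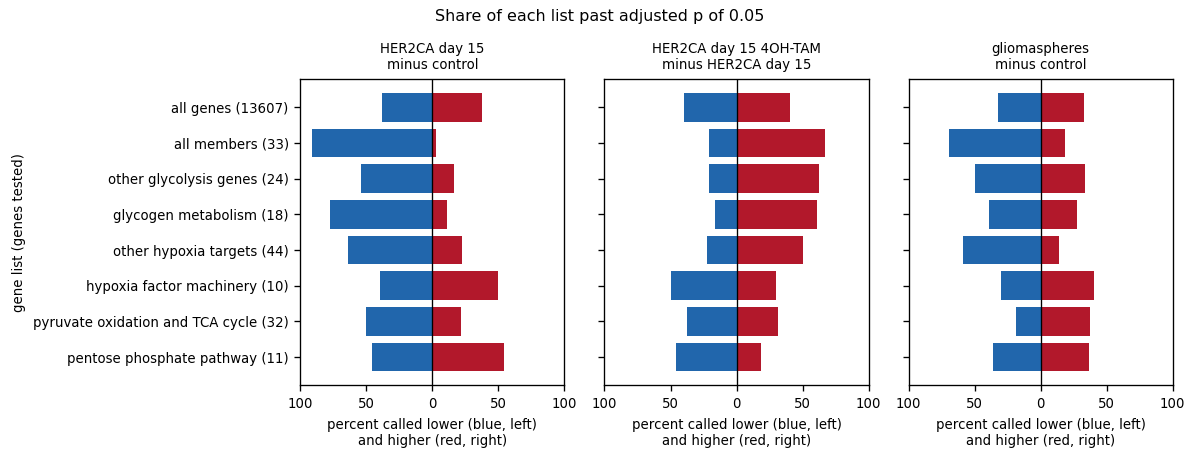
Bars give the percent of each list's tested genes (number in parentheses) called lower (blue, to the left) and higher (red, to the right) in 3 comparisons, with all genes in the top bar. In HER2CA day 15 minus control, 90.9% of the 33 genes were lower and 3.03% higher, against 38.4% and 37.3% of all genes.

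Markers of cell types moved with the same comparisons. The summed level of 9 astrocyte markers was 5710 and 6654 CPM in controls, 2731 and 2812 CPM in HER2CA day 15, 11950 and 12480 CPM under the 4OH-TAM label and 10510 and 10900 CPM in gliomaspheres, with 8 of the 9 lower in HER2CA day 15 than in control and 9 of 9 higher under the 4OH-TAM label than in HER2CA day 15. None of the 9 was at 0; S100b was near it in HER2CA day 15, at 0.275 and 0.207 CPM. The 7 oligodendrocyte lineage markers summed to 466 and 503 CPM, 118 and 109.6 CPM, 833 and 872 CPM, and 3278 and 2966 CPM in the same order of groups. Olig1, at 2362 and 2156 CPM, made up most of the gliomasphere sum. Against control, 5 of the 7 were higher and 2 lower in gliomaspheres, and also 5 and 2 under the 4OH-TAM label. Mbp, for example, was at 45.2 and 42.3 CPM in controls and 7.0 and 7.08 CPM in gliomaspheres. The 9 measured microglia and macrophage markers of 10 summed to 182 and 199.9 CPM, 192 and 203 CPM, 998 and 963 CPM, and 101 and 99.4 CPM; 8 of the 9 were higher and 1 lower under the 4OH-TAM label than in HER2CA day 15. Of these, Lyz2 was at 41.2 and 39.5 CPM in HER2CA day 15 and 729 and 713 CPM under the 4OH-TAM label, and Csf1r at 3.99 and 4.00 and 20.6 and 21.7 CPM. P2ry12 and Tmem119, defining for microglia, were at no more than 3.27 CPM in any library. Of 5 endothelial markers, Kdr alone was measured, at no more than 2.75 CPM. The 6 measured fibroblast and mural markers of 7 summed to 262 and 226.5 CPM, 266 and 263 CPM, 199 and 159 CPM, and 32.6 and 37.7 CPM. Acta2 made up most of that sum in HER2CA day 15, at 240.0 and 236 CPM, and was at 64.8 and 52.3 CPM under the 4OH-TAM label, while the other 5 were higher there than in HER2CA day 15. Pdgfrb, for example, was at 2.20 and 2.59 CPM in HER2CA day 15 and 29.6 and 23.4 CPM under the 4OH-TAM label. Of the 5 neuronal markers 2 were measured, Map2 at 98.4 to 584 CPM and Tubb3 at 0.724 to 9.45 CPM, and the 4 ependymal markers summed to 75.4 CPM at the lowest, in HER2CA day 15, and to 233 CPM at the highest, under the 4OH-TAM label. The part of these shifts in the glycolysis and hypoxia results was not tested. In bulk RNA, fewer cells of a type and less RNA per cell cannot be told apart.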

How the data were processed

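Stranded libraries of polyadenylated RNA were sequenced for 8 samples, per the labels' protocols. The authors deposited 1 table of whole-number counts by gene symbol and library, not normalised. The submitters' processing notes name FastQC, STAR 2.5.3a, featureCounts, mm10 and GRCm38 but give neither roles nor order. The sources used here do not give the annotation or the strand setting, so a gene and one overlapping it on the other strand may share reads: exons of Pfkm, Pfkp, Aldoa, Tpi1, Gapdh, Ankrd37 and Nrn1 overlap such a gene that is itself in the table, and exons of Slc2a1, Hk1, Gpi1, Hif1a, Car9, Bnip3 and Ndrg1 one that is annotated in GENCODE M21 but was not matched in it. All genes in the table reached 1 CPM in 2 or more libraries, and genes under that level were not analysed here.

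Column titles gave the sample of each column, and labels gave its group. edgeR 4.0.16 in R 4.3.3 was run with TMM factors and filterByExpr, which removed 0 of 13607 genes. A quasi-likelihood fit of the 4 group means to the 8 libraries left 4 residual degrees of freedom, with a common biological coefficient of variation of 0.0685. For each of 6 comparisons, p-values were Benjamini-Hochberg adjusted across the whole table and called under 0.05. Dividing the absolute log2 fold change by the root of F gave the standard error. CPM came from TMM-scaled library sizes, and CPM per kilobase from the longest CCDS transcript in GENCODE M21 (GRCm38), where 96.4% of symbols matched. A pair of gene models share the name Aldoa there, and ENSMUSG00000030695 was used. RefSeq (GRCm38.p6) supplied promoter sequences, except for Ndrg1 and Nrn1. Summaries and figures used Python 3.11.15, pandas 2.3.3 and matplotlib 3.10.9.

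Within groups, the libraries differed by a chi-square of 4.05 to 12.5 per degree of freedom, and of 723 in gliomaspheres. It was taken on counts scaled by library total alone. The gliomasphere value therefore includes Rn45s, at 222155 counts in A and 5599427 in B. All libraries were kept as separate replicates, although their differences could be technical alone. The genes described and all lists were chosen with earlier results of these data known. Every listed gene and the HIF machinery could be named. From each wider list and comparison, so could the 4 called genes with the largest change that reached 5 CPM in the higher group. Alternatives covered scaling (relative log expression, upper-quartile or no factors), filtering (none, or 5 CPM), DESeq2 1.42.0, testing against 1.5-fold, fitting only the compared groups, blocking by replicate letter and omitting each library. Dropping Rn45s and Lars2 without scaling was added after seeing the data. The edgeR fit was also run on counts simulated from its own fitted dispersions, with known changes in a small part of the genes. In these data far larger shares of genes were called, so that run does not check the scaling here.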

Additional observations from a re-analysis of the deposited data

How the results depend on the processing

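Of 2964 values recomputed for the 33 genes, 2750 kept their direction and their side of the threshold. A further 184 lost the call with the same direction, 26 gained one and 4 reversed. Of the 2750, 198 came from the run with no filter on low counts. The main filter had removed no gene, so those values could not change. Of 198 gene and comparison results, 115 were unmoved by every alternative run. All 4 reversals came with no scaling factors: Hif1a at -0.14 from control and -0.012 from the 4OH-TAM label in gliomaspheres, Aldoa at -0.20 and Tpi1 at -0.13 from the 4OH-TAM label in gliomaspheres. Without scaling, the median gene moved to -0.328 in gliomaspheres against control, -0.3 against HER2CA day 15, -0.376 against the 4OH-TAM label and 0.129 for that label against HER2CA day 15; with upper-quartile factors it moved to -0.173 in HER2CA day 15 and 0.217 for the 4OH-TAM label against it. The count for the full order of the groups fell from 12 to 3 with no scaling factors. Over all genes it fell from 246 (1.81%) to 31 (0.228%).

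The rise of 1 gene in HER2CA day 15 became 0 with upper-quartile factors, with no scaling factors and with a test against a 1.5-fold change. With no scaling factors, the counts of the 33 genes became 3 lower for the 4OH-TAM label against HER2CA day 15, 1 higher for it against control, 1 higher for gliomaspheres against control and 1 higher for gliomaspheres against the 4OH-TAM label. With the 1.5-fold test they became 14 higher and 3 lower, 1 higher, 3 higher and 15 lower, and 7 higher and 2 lower for the same 4 comparisons, and 4 lower for gliomaspheres against HER2CA day 15. Over all genes, no scaling gave 2304 higher in HER2CA day 15, 2037 lower for the 4OH-TAM label against it, 2115 higher and 539 lower for that label against control, 1386 higher in gliomaspheres against control, 3030 higher against HER2CA day 15 and 749 higher against the 4OH-TAM label. The 1.5-fold test gave 2302 higher and 3154 lower, 2339 lower, 1804 higher and 613 lower, 1897 higher and 1496 lower, 3431 higher and 2806 lower, and 1297 higher and 1728 lower, in that order of comparisons. No setting dropped the scaling factors with gliomaspheres B left out, and the cause of these changed counts was not tested.

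With the replicate block, Vegfa in gliomaspheres against HER2CA day 15 (-0.17, edgeR adjusted p = 0.0434) and Pfkm in gliomaspheres against the 4OH-TAM label (0.18, 0.0397) passed; it changed no other call of the 33 genes. The letters were not taken to pair the samples, since correlations of A minus B between groups ran from -0.0314 to 0.0554 over all genes. With 2 libraries a group, small differences are measured with little information on the spread, and Ankrd37, at 1 to 92 counts a library, is limited by depth.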
